A study of Bos taurus with 16 samples.

Results

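The genes of the major histocompatibility complex (MHC) and of antigen presentation were followed in bovine blastocysts and bovine embryonic stem cells (bESCs) given LY2955303 (LY), a specific inhibitor of retinoic acid receptor gamma. Members were chosen by gene name: BOLA, B2M, TAP1, TAP2, TAPBP, BOLA-DRA, CD74, NLRC5 and CIITA. Without regard to case these names matched 10 genes in each table, because the name BOLA also matched a gene written BoLA. They are 10 of 38959 genes in the first blastocyst table, 10 of 37429 in the second and 10 of 28303 in the bESC table.

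Every blastocyst library came from 1 embryo on day 8, made by in vitro fertilisation of slaughterhouse oocytes and grown in culture medium that held LIF, FGF2 and IGF1 in all embryo groups. The first blastocyst table holds 3 embryos cultured from the 2-cell stage with LY at 10 μM (LY10) and 3 with the DMSO vehicle (DMSO). The second holds 2 embryos given LY from the 2-cell stage (cell2_LY), 2 given LY from the 16-cell stage (cell16_LY) and 2 with vehicle (LY_DMSO), and its labels give no dose. The bESC table holds 2 libraries in TIFX stem cell medium (bESC_tifx) and 2 in that medium with LY for 3 days (bESC_LY), all grown on mouse embryonic fibroblast feeders. For bESC culture with LY the study describes a dose of 10 μM and a DMSO control, neither of which the labels give. The labels give genotype WT and batch 1 for all 16 libraries, so no batch could be compared. Nothing says that libraries of a group came from separate fertilisations or cultures, so p-values measure the spread between these libraries only.

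MHC class I molecules show peptides from inside the cell to cytotoxic T cells, and natural killer cells read their absence. A class I heavy chain pairs with beta-2 microglobulin, the light chain made by B2M, and takes up a peptide that the TAP1 and TAP2 transporter has brought into the endoplasmic reticulum with the help of tapasin (TAPBP). MHC class II molecules, such as the one whose alpha chain BOLA-DRA encodes, show peptides taken up from outside, are normally made by specialised antigen-presenting cells, and are escorted by the invariant chain CD74. NLRC5 is the transcriptional activator of class I genes and CIITA that of class II genes. Placental tissue of mammals is known for keeping classical class I low on cells that face the mother.

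In the blastocyst tables, whose gene positions match ARS-UCD2.0, 6 members lie on chromosome 23: TAP2 (chr23:7138820-7146579), TAP1 (chr23:7177596-7186308), TAPBP (chr23:7473471-7483390), BOLA-DRA (chr23:25838391-25843092), BoLA (chr23:27829793-27948002) and BOLA (chr23:28720499-28724294). B2M lies on chromosome 10 (chr10:103095506-103103791), CD74 on chromosome 7 (chr7:61747919-61755725), NLRC5 on chromosome 18 (chr18:25009893-25103235) and CIITA on chromosome 25 (chr25:9542385-9601549). BOLA and BoLA are described as class I heavy chain genes, and reads that fit several class I genes equally well may have been split or dropped, so their levels are uncertain. The bESC table uses other gene models, whose build is not given in the sources used here. BoLA has 1595 bases there against 6306 in the blastocyst tables, TAP2 5024 against 2580 and BOLA-DRA 2368 against 1267. The TAP2 model of the bESC table also reaches further (chr23:7138546-7169274). Of the 10 members 9 lie at overlapping positions in the blastocyst and bESC tables, and B2M does not. Each table describes 2 genes on chromosome 10 as beta-2 microglobulin. In the blastocyst tables the copy at the lower position carries the name B2M, and the upper copy is listed as LOC783680 (chr10:103116475-103122698). In the bESC table the upper copy (chr10:103116503-103123174) carries the name, and the lower (chr10:103095506-103103769) is listed without one. Both copies are therefore given below, with the second chosen after its values were seen, and reads that fit both may have been split between them.

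Reads on genes numbered 7905768 to 15137567 per library in the first blastocyst table, 11336091 to 17343140 in the second and 29055323 to 31230432 in the bESC table. Levels are given as FPKM (fragment counts adjusted for gene length and sequencing depth), the deposited unit, and changes as log2 fold changes of normalized counts (reads brought to 1 library size within a table). A gene at 0 reads may hold up to 3 reads, at most 4.09, 3.5 and 3.18 normalized counts in a library of the 3 tables, which covers counting error only. The labelled tissues were checked by markers. All 7 trophectoderm markers had reads in every blastocyst and summed to between 2571 and 9544 FPKM, mostly KRT8 and KRT18. The 4 epiblast markers found in the bESC table summed to 1118 to 1232 FPKM there, mostly POU5F1 (967 to 1117 FPKM). Epiblast markers summed to 173 to 741 FPKM in blastocysts, and trophectoderm markers to 101 to 299 FPKM in bESC libraries. The trophectoderm marker CDX2 had 13.7 and 15.2 FPKM in replicate 3 of bESC_tifx and bESC_LY, above every blastocyst (at most 7.68 FPKM). In replicate 2 of these groups it had 0.37 and 0.24 FPKM. Cell2_LY replicate 1 stood apart, since the library size implied by its FPKM was 1.23 times its reads on genes, against 0.949 to 1.07 in the other blastocysts.

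B2M was by far the most abundant member in every blastocyst. Its level lay between 99.99 and 716 FPKM in the 12 blastocysts, with a median of 232 FPKM. TAP1 followed with a median of 2.40 FPKM (0.402 to 7.83), and the medians of the other 8 members were all below 0.5 FPKM. TAPBP had a median of 0.447 FPKM, TAP2 0.439 FPKM, CD74 0.174 FPKM, BOLA-DRA 0.157 FPKM, BOLA 0.15 FPKM, BoLA 0.0896 FPKM, CIITA 0.0791 FPKM and NLRC5 0.0255 FPKM. From TAP1 downwards neighbours in this order overlapped over the libraries, and many values rested on few reads. BOLA had at most 29 reads in a blastocyst, NLRC5 at most 15 and TAPBP at most 44. No blastocyst was at 0 reads for B2M, TAP1 or TAPBP, while BOLA-DRA was at 0 in 3 blastocysts, BOLA, CD74 and NLRC5 in 2 each, and TAP2, BoLA and CIITA in 1 each.

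The bESC libraries held the members in another proportion. Of the 9 members at overlapping positions in the tables, 6 were higher in all 4 bESC libraries than in all 12 blastocysts, and 3 overlapped. The share of all genes that lay apart in this way was not counted, so this number shows nothing particular to these members. The heavy chain gene BOLA had 13.4 to 22.8 FPKM in bESC libraries and at most 1.33 FPKM in a blastocyst. TAPBP had 25.0 to 34.3 FPKM against at most 1.43 FPKM, and TAP1 29.2 to 41.5 FPKM against at most 7.83 FPKM. TAP2 had 9.28 to 14.2 FPKM against at most 1.34 FPKM, NLRC5 2.47 to 2.93 FPKM against at most 0.134 FPKM, and CIITA 1.04 to 2.0 FPKM against at most 0.819 FPKM. The other 3 members, CD74 (4.70 to 7.80 FPKM), BOLA-DRA (0.102 to 0.328 FPKM) and BoLA (0.197 to 0.846 FPKM), overlapped between the kinds of sample.

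B2M was read copy by copy. The lower copy, the B2M of the blastocysts, had 140 and 107 FPKM in bESC_tifx and 179 and 97.0 FPKM in bESC_LY, within or just below the blastocyst range. The upper copy, the B2M of the bESC table, had 56.1 and 27.6 FPKM in bESC_tifx and 68.9 and 36.9 FPKM in bESC_LY, and 28.3 to 159 FPKM in blastocysts. In sum the copies had 131 to 870 FPKM in blastocysts and 134 to 248 FPKM in bESC libraries, which overlapped. By name alone, B2M would have seemed lower in every bESC library than in every blastocyst.

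Blastocyst and bESC levels come from tables that were normalized separately, with different RNA kits and gene models, so they stand side by side with no test. The bESC libraries also carried 70.8 to 72.5 FPKM of 7 fibroblast markers in sum, against 6.10 to 90.7 FPKM in blastocysts. COL1A1 (45.8 to 54.7 FPKM) and THY1 (10.0 to 18.7 FPKM) made up most of the bESC sum, while DCN had at most 0.284 FPKM there and up to 4.90 FPKM in a blastocyst. Mouse feeder cells grew under the bESCs, and the part of mouse reads in these levels was not tested. In a whole embryo or culture, fewer cells of a type and less RNA per cell cannot be told apart.

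**Figure D1:**
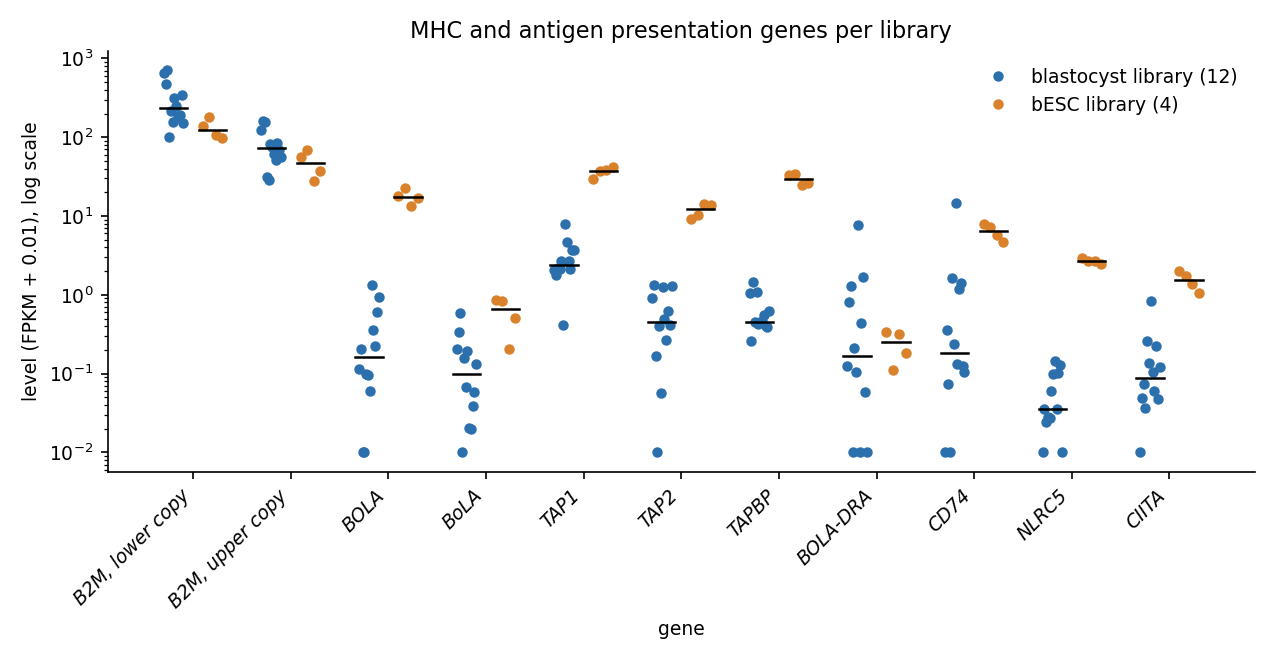
Level of each gene (FPKM + 0.01, log axis) in 12 blastocyst libraries (blue) and 4 bESC libraries (orange), each point a library and each bar the median, with the B2M copies paired by position. TAP1, TAP2, TAPBP, BOLA, NLRC5 and CIITA are higher in every bESC library than in every blastocyst, while both B2M copies overlap (lower copy 99.99 to 716 FPKM in blastocysts and 97.0 to 179 FPKM in bESC libraries).

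The light chain also exceeded the heavy chains by a wide margin in blastocysts. Over the genes whose description names a class I chain (13 genes in the first blastocyst table, 12 in the second and 10 in the bESC table), the summed level was 0.765 to 13.7 FPKM in blastocysts and 28.2 to 42.4 FPKM in bESC libraries. The ratio of both B2M copies to this sum, per length, was between 21.7 and 1008 in blastocysts with a median of 44.9, and between 3.70 and 5.86 in bESC libraries. The ratio of 1008 was that of DMSO replicate 1, where the heavy chain sum was lowest. Reads shared between class I genes may lower the heavy chain sum in each table.

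In the first blastocyst table, which asks what LY from the 2-cell stage does to the blastocyst, B2M was lower with LY. DMSO blastocysts had 7330, 5294 and 8083 normalized counts of B2M, and LY10 blastocysts had 1129, 2460 and 1748. Every LY10 embryo lay below every DMSO embryo. The mean was 6902 ± 1443 (SD, n = 3) normalized counts in DMSO and 1779 ± 666 (SD, n = 3) in LY10. This was a log2 fold change of -2.0 ± 0.31 (SE), a 4.01-fold lower level (limma, adjusted p = 0.0711 over 14249 genes). Genes are said to be called here at the study's threshold, a log2 fold change beyond 1 in either direction with p below 0.05 before adjustment, and B2M was called while it missed an adjusted p of 0.05. Over 17 alternatives in processing the log2 fold change stayed between -2.27 and -1.71 and the adjusted p between 0.0187 and 0.206.

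The other B2M copy, LOC783680, was lower too. It had 1180, 1542 and 1496 normalized counts in DMSO and 299, 274 and 800 in LY10, without overlap. Its log2 fold change was -1.79 ± 0.40 (SE, limma, adjusted p = 0.0786), and it was called under all 17 alternatives. The copies together had 8510, 6836 and 9578 normalized counts in DMSO and 1428, 2734 and 2548 in LY10.

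Markers of other cells moved between these groups. Of 7 fibroblast markers at least 5 had reads in every blastocyst, and their sum was 24.5, 24.4 and 90.7 FPKM in DMSO and 6.10, 8.58 and 11.7 FPKM in LY10. In DMSO replicate 3, LUM, a proteoglycan of connective tissue, made up 80.1 FPKM of it. The epiblast markers summed to 279, 217 and 173 FPKM in DMSO and to 504, 741 and 368 FPKM in LY10. Most of this sum was POU5F1, a pluripotency factor (246, 184 and 164 FPKM in DMSO and 481, 611 and 328 FPKM in LY10), while NANOG, SOX2, PRDM14 and LIN28B overlapped between the groups. The trophectoderm and hypoblast sums overlapped, and the hypoblast markers went both ways. HNF4A (0.168 to 0.951 FPKM in DMSO and 2.99 to 5.68 FPKM in LY10) and PDGFRA (0.526 to 4.26 and 10.6 to 47.1 FPKM) were higher in every LY10 embryo. GATA6 (64.8 to 107 FPKM in DMSO and 46.2 to 57.3 FPKM in LY10) and GATA4 (0.0909 to 0.137 and 0.0433 to 0.0798 FPKM) were lower in every LY10 embryo, and SOX17 overlapped. The cumulus and granulosa sum was 15.0, 18.6 and 24.1 FPKM in DMSO and 6.32, 7.53 and 18.4 FPKM in LY10, which overlapped. Leukocyte markers summed to at most 3.05 FPKM in these 6 blastocysts. Without DMSO replicate 3 the log2 fold change of B2M was -1.88, and the part of the makeup of the embryos in it was not tested.

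Of the other members, 4 had the mean of 10 normalized counts that a test required in this table, and BoLA alone among them was called. The 2 calls among 5 tested members, both lower, stand beside 14.7% of all genes called (2097 of 14249). BoLA, a class I heavy chain gene, had 13.2, 21.9 and 38.3 normalized counts in DMSO and 0, 10.1 and 3.88 in LY10. These groups did not overlap, yet the values rest on 74 reads in DMSO and 18 in LY10. Its difference on the log2 scale was -2.63 ± 1.09 (SE, limma, adjusted p = 0.198), and the call was lost with quantile normalization, voom or sample weights and on leaving out LY10 replicate 1 (-1.67), LY10 replicate 3, or either of DMSO replicates 1 and 2.

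The peptide transporter and its partner were not called. TAP1 had 59.8, 51.7 and 62.4 normalized counts in DMSO and 61.4, 77.1 and 11.7 in LY10, with only LY10 replicate 3 below the DMSO range. Its log2 fold change was -0.57 ± 0.68 (SE, limma, adjusted p = 0.637). TAP2 had 24.8, 36.8 and 4.38 normalized counts in DMSO and 0, 10.7 and 1.29 in LY10, so that DMSO replicate 3 lay within the LY10 range. Its difference on the log2 scale was -2.54 ± 1.29 (SE, limma, adjusted p = 0.275), and it was called without DMSO replicate 3 (-3.38, adjusted p = 0.0934 by limma) or LY10 replicate 2 (-3.52), and with sample weights. TAPBP had 28.7, 6.96 and 39.4 normalized counts in DMSO and 12.3, 29.5 and 11.7 in LY10, which overlapped.

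The remaining members fell short of the mean of 10 normalized counts. BOLA had 5 reads in the 3 DMSO blastocysts together and 3 in the LY10 blastocysts, and NLRC5 had 3 and 6. BOLA-DRA had 1.55, 10.9 and 17.5 normalized counts in DMSO and 0, 2.68 and 1.29 in LY10, which overlapped. CD74 was highest in LY10 replicate 2, at 28.2 normalized counts, and between 0 and 5.97 in the other 5 blastocysts. CIITA had 0, 1.99 and 3.28 normalized counts in DMSO and 1.36, 12.7 and 6.47 in LY10.

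In the second blastocyst table, where LY from the 2-cell stage was compared with its own vehicle, B2M was not called. LY_DMSO blastocysts had 2882 and 3138 normalized counts and cell2_LY blastocysts 5154 and 3985, both above the vehicle. The log2 fold change was 0.59 ± 0.38 (SE, limma, adjusted p = 0.358). The contrast in the first table minus that in this one was -2.60 on the log2 scale with a standard error of 0.53 for B2M (limma over both tables, adjusted p = 0.0190), past the threshold and past adjustment. For LOC783680 it was -1.84 ± 0.58 (SE, limma, adjusted p = 0.0706), called but not past adjustment. B2M was the 1 member of 7 tested that was called in this difference, beside 22.9% of all genes (3137 of 13724).

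The vehicle groups themselves lay at different levels of B2M. DMSO blastocysts had 649, 469 and 716 FPKM, and LY_DMSO blastocysts had 178 and 194 FPKM. The LY10 blastocysts, at 99.99, 218 and 155 FPKM, spanned the values of LY_DMSO, and cell2_LY, at 319 and 247 FPKM, lay above all of LY10. LOC783680 had 122, 159 and 154 FPKM in DMSO and 50.9 and 84.3 FPKM in LY_DMSO. These levels cross tables that were normalized separately and were not tested. The experiment and the embryos changed with the table, no dose is labelled in the second, and their parts in the difference cannot be told apart.

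**Figure D2:**
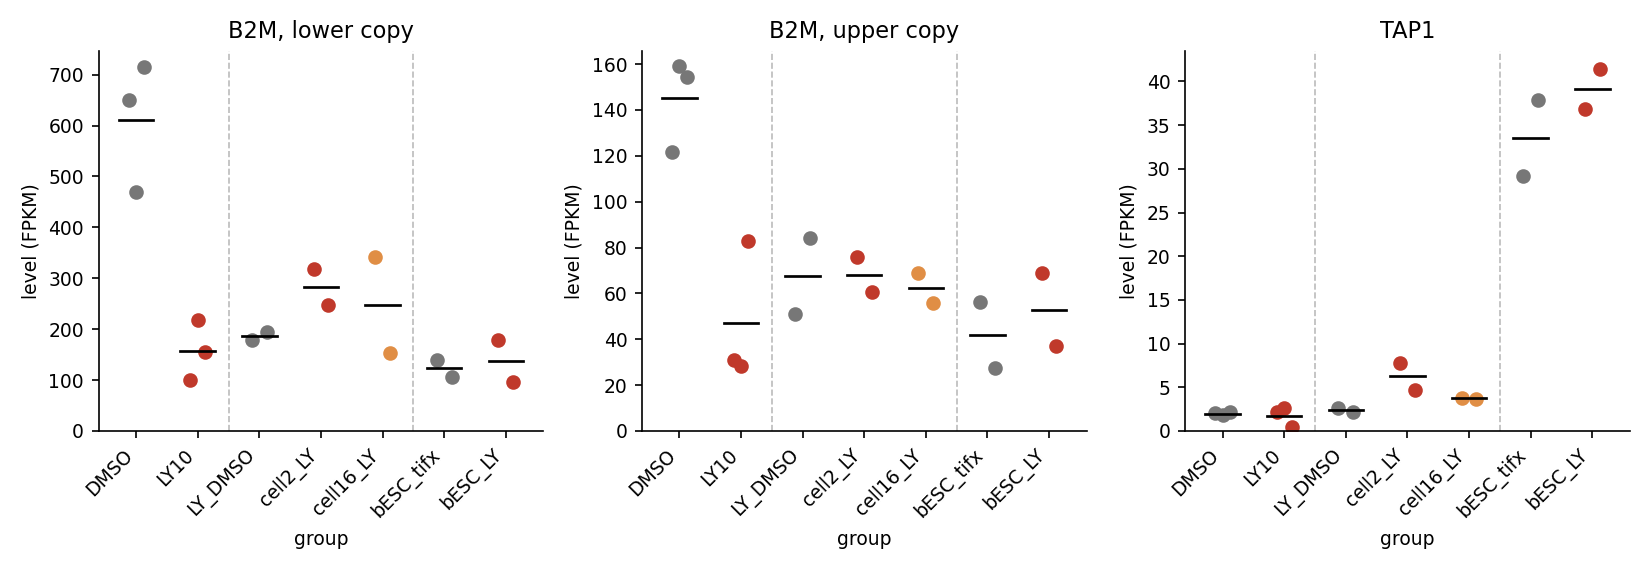
Level (FPKM) of the lower B2M copy, the upper B2M copy and TAP1 in every library by group, with points for libraries and bars for group means. Grey marks vehicle or medium, red LY (for embryos, from the 2-cell stage) and orange LY from the 16-cell stage, and dashed lines separate the 3 tables. Both copies are highest in DMSO (469 to 716 and 122 to 159 FPKM), and TAP1 in cell2_LY (7.83 and 4.70 FPKM) lies above LY_DMSO (2.68 and 2.14 FPKM).

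TAP1 was the only member called in cell2_LY. It had 111 and 88.7 normalized counts in LY_DMSO and 325 and 195 in cell2_LY, without overlap. The difference was 1.34 ± 0.40 (SE) on the log2 scale, a 2.52-fold higher level (limma, adjusted p = 0.105). This was 1 of 8 tested members, beside 17.0% of all genes called (2476 of 14529). Without cell2_LY replicate 1, the library that stood apart, the log2 fold change was 0.97 and TAP1 was not called (adjusted p = 0.336 by limma). For TAP1 the first table minus the second gave -1.91 ± 0.90 (SE, limma, adjusted p = 0.209), which missed the threshold.

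The other class I members in cell2_LY had wide errors. TAP2 had 10.2 and 24.0 normalized counts in LY_DMSO and 49.1 and 18.7 in cell2_LY, and the groups overlapped. Its log2 fold change was 0.91 ± 0.88 (SE, limma, adjusted p = 0.551). TAPBP had 21.3 and 15.7 normalized counts in LY_DMSO and 17.5 and 17.8 in cell2_LY, a log2 fold change of -0.05 ± 0.76 (SE). BOLA had 7.41 and 4.62 normalized counts in LY_DMSO, and 1.09 and 28.6 in cell2_LY, so that the cell2_LY embryos lay on either side of the vehicle. BoLA and NLRC5 did not reach a mean of 10 in this table. BoLA had 4 reads over the LY_DMSO blastocysts and 17 over those of cell2_LY, and NLRC5 had 14 and 24.

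The upper B2M copy was not called in cell2_LY either. LOC783680 had 706 and 1169 normalized counts in LY_DMSO and 1052 and 837 in cell2_LY, inside the vehicle range. Its difference on the log2 scale was 0.05 ± 0.32 (SE).

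With LY from the 16-cell stage no member of 8 tested was called, beside 5.22% of all genes (758 of 14529). None had a limma p under 0.05, and voom also gave 0. The comparison shares its vehicle libraries with cell2_LY. TAP1 had 155 and 154 normalized counts in cell16_LY, above both LY_DMSO values, with a log2 fold change of 0.63 ± 0.40 (SE, limma, adjusted p = 0.750). B2M had 5529 and 2478 normalized counts in cell16_LY, on either side of the vehicle, with a log2 fold change of 0.30 ± 0.38 (SE). BOLA had 13.0 and 19.8 normalized counts in cell16_LY, above LY_DMSO, with a log2 fold change of 1.31 ± 1.37 (SE). TAP2 (15.8 and 50.2) and TAPBP (14.9 and 24.5 normalized counts) overlapped with the vehicle. BoLA, not tested, had 4.65 and 11.7 normalized counts in cell16_LY and 0.927 and 2.77 in LY_DMSO, from 15 and 4 reads, and NLRC5 had 13.0 and 0 in cell16_LY.

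**Figure D3:**
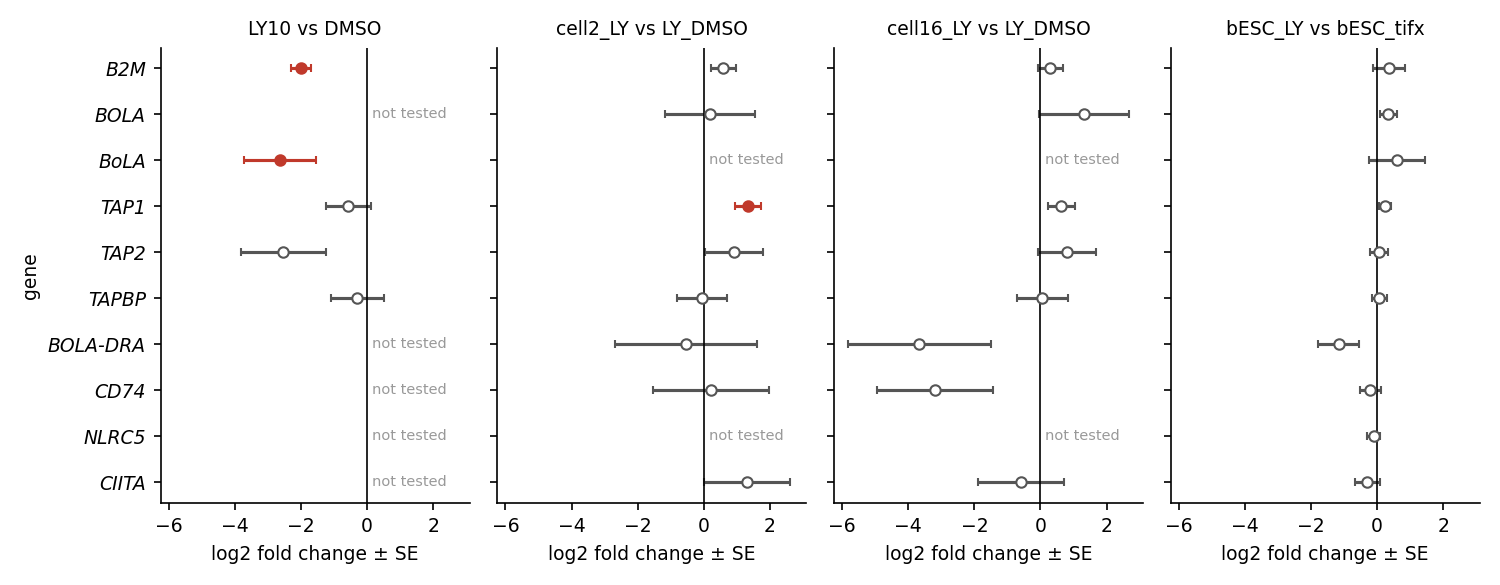
Log2 fold change with its standard error (limma, log2(normalized count + 1)) of the 10 genes in 4 comparisons, with filled red points for genes called. B2M (-2.0) and BoLA (-2.63) are called in LY10 and TAP1 (1.34) in cell2_LY, and none is called in cell16_LY or bESC_LY. Genes below a mean of 10 normalized counts were not tested, and B2M is the upper copy in bESC_LY.

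The class II members differed widely between the cell2_LY embryos. CD74 had 357 normalized counts in cell2_LY replicate 1 and 2.96 in cell2_LY replicate 2, against 28.7 and 34.2 in LY_DMSO and 2.79 and 2.33 in cell16_LY. BOLA-DRA had 147 normalized counts in cell2_LY replicate 1 and 0 in replicate 2, against 8.34 and 32.3 in LY_DMSO and 0.930 and 0 in cell16_LY. CIITA, their activator, had 60.1 normalized counts in cell2_LY replicate 1, 6.90 in replicate 2, 3.71 and 15.7 in LY_DMSO and 2.79 and 8.16 in cell16_LY. One embryo, cell2_LY replicate 1, was thus the highest of its table for all 3 genes.

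The same embryo had the highest sum of class II genes. The summed level of 14 class II genes, CD74 included, was 36.8 FPKM in cell2_LY replicate 1, 16.7 FPKM in LY_DMSO replicate 2 and between 0.428 and 5.96 FPKM in the other 10 blastocysts. In cell2_LY replicate 1 the sum was led by CD74 (14.6 FPKM), the DR beta chain gene BOLA-DRB3 (10.8 FPKM), BOLA-DRA (7.63 FPKM) and BOLA-DMB, a chain of the peptide loading molecule DM (2.35 FPKM). LY_DMSO replicate 2 was higher for BOLA-DRB3, at 12.4 FPKM, while CD74 had 1.39 FPKM and BOLA-DRA 1.67 FPKM. The sum in bESC libraries was 8.65 to 13.5 FPKM over 11 genes, with most of it CD74 and with BOLA-DRA at no more than 23 reads.

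Markers of other cells were read beside this. Of 7 leukocyte and antigen-presenting cell markers, cell2_LY replicate 1 had reads for 3 and a sum of 1.94 FPKM, within the range of at most 7.73 FPKM of the 12 blastocysts. PTPRC, the pan-leukocyte antigen CD45, was at 0 reads in it, as were CD14, CD3E and CSF1R, while CD68 had 31 reads, CD79A 3 and ITGAM 1. Its sum of 7 cumulus and granulosa markers was the highest of the blastocysts, 53.7 FPKM against 6.32 to 27.9 FPKM in the others, of which HSD3B1 made up 46.1 FPKM. TNFAIP6 and PTX3 were at 0 reads in it and HAS2 had 8. STAR (4.31 FPKM), FSHR (2.95 FPKM) and CYP19A1 (0.227 FPKM) lay within the range of the other blastocysts. The part of cumulus cells or of the library's depth in its class II reads was not tested.

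**Figure D4:**
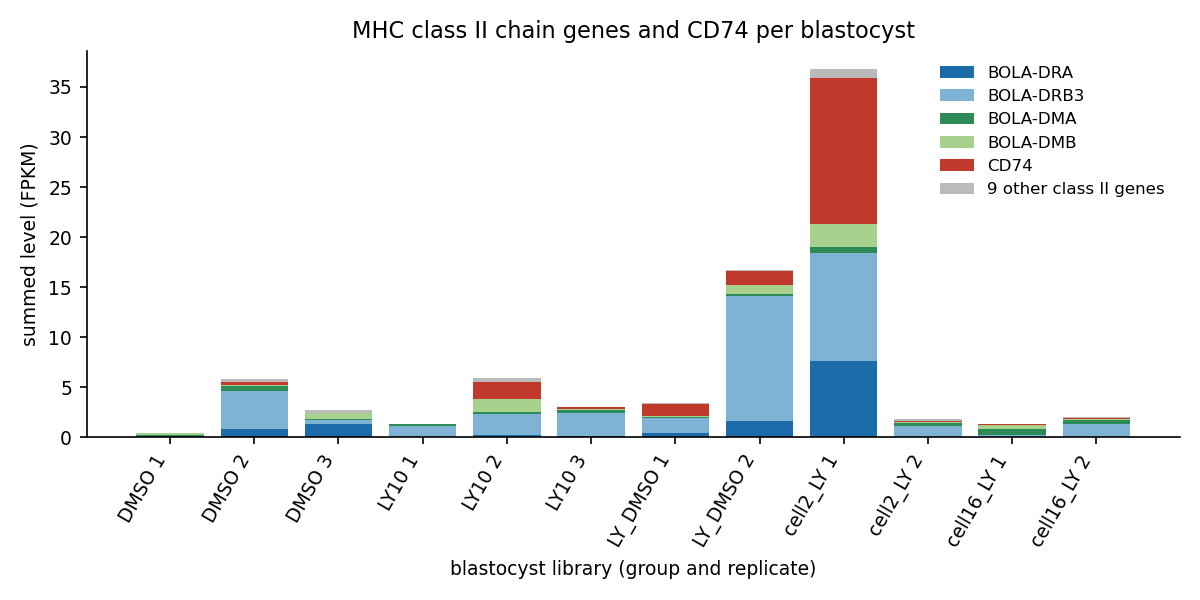
Summed level (FPKM, stacked by gene) of 14 class II genes, CD74 included, in each of the 12 blastocysts. Cell2_LY replicate 1 reaches 36.8 FPKM and LY_DMSO replicate 2 16.7 FPKM, while the other 10 blastocysts lie between 0.428 and 5.96 FPKM.

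The tests of class II members follow that embryo. For CD74 the log2 fold change of cell2_LY against LY_DMSO was 0.22 ± 1.76 (SE, limma, adjusted p = 0.952). Without cell2_LY replicate 1 it was -3.03 (adjusted p = 0.310 by limma), and without replicate 2 it was 3.47 (adjusted p = 0.0580 by limma). For BOLA-DRA it was -0.53 ± 2.16 (SE), and for CIITA 1.31 ± 1.31 (SE).

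In cell16_LY, CD74 rested on 5 reads in both libraries together against 68 in LY_DMSO, and the groups did not overlap. This was a log2 fold change of -3.19 ± 1.76 (SE, limma, adjusted p = 0.722). When the fit held only these 2 groups, so that the spread in cell2_LY did not enter, CD74 was called (adjusted p = 0.493 by limma). Leaving out either cell2_LY replicate also kept that spread out of the fit, at the same log2 fold change, and so adds no separate support. BOLA-DRA had 1 read in cell16_LY against 44 in LY_DMSO, a log2 fold change of -3.67 ± 2.16 (SE, limma, adjusted p = 0.735). It was called in the fit of these 2 groups (adjusted p = 0.513 by limma).

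Between the starting stages, cell16_LY against cell2_LY, no member of 8 was called, beside 11.3% of all genes (1649 of 14529). None had a limma p under 0.05, and voom gave 0. Without cell2_LY replicate 2, cell2_LY replicate 1 alone stood for its group. The log2 fold change was then -6.66 for CD74, -6.74 for BOLA-DRA, -3.37 for CIITA and -1.07 for TAP1. Without cell2_LY replicate 1 none was called.

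In bESCs LY moved no member past the threshold. The 0 calls among 10 tested members stand beside 0.0749% of all genes called (12 of 16012), none of the 10 had a limma p under 0.05, and voom also gave 0. This fit does not use the replicate numbers, although deviations of same-numbered libraries correlated at 0.789. With the numbers as a block 0 members were called, beside 146 of all genes. B2M (the upper copy) and TAP1 then had an adjusted p of 0.00126 and 0.0473 by limma, while the lower B2M copy had one of at least 0.713. TAP1 had 2794 and 3621 normalized counts in bESC_tifx and 3522 and 3963 in bESC_LY, with a log2 fold change of 0.23 ± 0.19 (SE). TAPBP had 3341 and 2514 in bESC_tifx and 3448 and 2657 in bESC_LY, with a log2 fold change of 0.06 ± 0.22 (SE). BOLA had 920 and 678 normalized counts in bESC_tifx and 1157 and 854 in bESC_LY, a log2 fold change of 0.33 ± 0.26 (SE). In these 3 genes, and in the upper B2M copy below, the values of replicates 2 and 3 with LY each lay above that of the same number without it. The groups overlapped. In NLRC5, CIITA, CD74 and BOLA-DRA, also below, both values with LY lay under that of the same number. How many of all genes moved 1 way in both numbers was not counted. TAP2 had 1424 and 2183 normalized counts in bESC_tifx and 1572 and 2139 in bESC_LY (0.06 ± 0.29 on the log2 scale, SE), and BoLA 41.2 and 9.58 in bESC_tifx and 40.2 and 23.9 in bESC_LY (0.60 ± 0.86, SE).

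The activators and class II members were not called in bESCs either. NLRC5 had 523 and 474 normalized counts in bESC_tifx and 485 and 441 in bESC_LY, a log2 fold change of -0.11 ± 0.19 (SE). CIITA had 295 and 201 in bESC_tifx and 254 and 153 in bESC_LY, a log2 fold change of -0.30 ± 0.38 (SE). CD74 had 373 and 276 in bESC_tifx and 342 and 225 in bESC_LY, a log2 fold change of -0.21 ± 0.32 (SE). With 2 libraries a group, values can lie apart by accident, and the share of all genes whose groups did was not counted. BOLA-DRA was the 1 member whose groups did not overlap, at 23.7 and 22.0 normalized counts in bESC_tifx and 7.41 and 12.4 in bESC_LY. Its log2 fold change was -1.17 ± 0.62 (SE, limma, adjusted p = 1.0), from 46 and 20 reads. B2M, here the upper copy, had 2327 and 1142 normalized counts in bESC_tifx and 2858 and 1532 in bESC_LY, a log2 fold change of 0.36 ± 0.47 (SE). The lower copy had 4442 and 3390 in bESC_tifx and 5690 and 3074 in bESC_LY, 0.11 ± 0.35 (SE) on the log2 scale. With LY it was higher in replicate 2 and lower in replicate 3.

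The wider pathway was read through gene lists written from general knowledge, each described by counts and its median beside that of all tested genes. In LY10 against DMSO the class I and peptide loading list had 3 of 10 tested genes called, 2 lower (B2M and BoLA) and 1 higher, beside 14.7% of all genes, with a median log2 fold change of -0.25 against -0.05 over all genes. The gene called higher was ERAP1, which trims peptides in the endoplasmic reticulum, with a log2 fold change of 4.10 led by LY10 replicate 2 and groups that overlapped. ERAP1 was named after its values were seen. The chaperone genes CALR, CANX and PDIA3, which fold class I chains among many other proteins, were not called in this comparison.

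Of the proteasome list 1 of 8 tested genes was called in LY10, beside 14.7% of all genes. PSME1, a subunit of the PA28 activator of antigen processing, had 269, 146 and 325 normalized counts in DMSO and 479, 587 and 554 in LY10, without overlap. The difference was 1.2 ± 0.33 on the log2 scale (SE, limma, adjusted p = 0.0971), and it was 0.86 and not called without DMSO replicate 2. PSMB8, an immunoproteasome subunit, had at most 1.01 FPKM in a blastocyst and at least 21.5 FPKM in each bESC library. It was called in no comparison and is named outside the naming rule.

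Of the class II list none of 6 tested genes was called in LY10 (1 had a limma p under 0.05). Of the regulators 1 of 14 was called, beside 14.7% of all genes. That regulator was RFX5, part of the complex that binds class II promoters, with 67.3 ± 33.4 (SD, n = 3) normalized counts in DMSO and 24.1 ± 11.3 (SD, n = 3) in LY10. It was named after its values were seen, its mean being below the 50 that naming required.

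With LY from the 2-cell stage in the second table, 2 of 12 tested genes of the class I list were called, TAP1 higher and ERAP1 lower (-2.71, with groups that overlapped), beside 17.0% of all genes, and the median was 0.75 against 0.00 over all genes. None of 8 proteasome and none of 9 class II genes was called, while 3 and 0 of them had a limma p under 0.05. Among 15 regulators IRF1, an interferon-induced activator of class I transcription, was called lower. It had 166 and 97.0 normalized counts in LY_DMSO and 40.4 in each cell2_LY embryo, a log2 fold change of -1.63 ± 0.51 (SE, limma, adjusted p = 0.114), and was not called without LY_DMSO replicate 1 (-1.24).

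IRF1 was also lower in cell16_LY, at 59.5 and 42.0 normalized counts, against the same vehicle libraries. The log2 fold change was -1.33 ± 0.51 (SE, limma, adjusted p = 0.620), and the call was lost without LY_DMSO replicate 1 or either cell16_LY replicate, with a mean of at least 50 and with FPKM. The other regulator of 15 called lower there was SOCS1, an inhibitor of cytokine signalling (44.4 ± 2.53 normalized counts in LY_DMSO and 13.2 ± 2.83 in cell16_LY, SD, n = 2), named after its values were seen. In the class I list 1 of 12 was called, beside 5.22% of all genes. This was CALR, at 13553 and 4999 normalized counts in LY_DMSO and 19181 and 21166 in cell16_LY. Its difference on the log2 scale was 1.29 ± 0.43 (SE, limma, adjusted p = 0.583) and it was not called without LY_DMSO replicate 2 (0.57) or cell16_LY replicate 2 (1.22). None of 8 proteasome and none of 9 class II genes was called or had a limma p under 0.05.

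Between cell16_LY and cell2_LY none of 12 class I, 8 proteasome and 9 class II genes was called by limma (1, 0 and 0 had a p under 0.05). Of 15 regulators 1 was called, SOCS1, lower in cell16_LY, beside 11.3% of all genes (1649 of 14529). In bESCs none of the 17 class I, 9 proteasome, 10 class II and 17 regulator genes tested was called or had a limma p under 0.05. This stands beside 0.0749% of all genes called (12 of 16012), and the list medians lay between -0.10 and 0.08.

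A last list took every gene whose description names a histocompatibility antigen or domain, which brought in the MHC class I-like ligands of the natural killer receptor NKG2D (the ULBP and RAET1 families). In LY10 4 of 20 tested genes of this list were called, all lower, beside 14.7% of all genes, and in cell16_LY 3 of 23 were called, beside 5.22%. ULBP21, an NKG2D ligand gene, had 60.2 and 49.0 normalized counts in LY_DMSO, 121 and 185 in cell2_LY and 361 and 146 in cell16_LY. Every LY embryo of the second table was thus above both vehicle embryos, which both contrasts share. How many of all genes lay apart in this way was not counted. The log2 fold change was 1.45 ± 0.52 (SE) in cell2_LY (limma, adjusted p = 0.144) and 2.06 ± 0.52 (SE) in cell16_LY (limma, adjusted p = 0.5). The call was lost in cell2_LY without cell2_LY replicate 2 (1.14) or LY_DMSO replicate 2 (1.3) or with sample weights, and in cell16_LY without cell16_LY replicate 1 (1.41).

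A pair of further ULBP genes in this list were at or near 0 in cell16_LY. LOC100336795, described as a UL16-binding protein, had 187 and 963 normalized counts in LY_DMSO, 548 and 10.9 in cell2_LY and 0 and 7.0 in cell16_LY. Its log2 fold change in cell16_LY against LY_DMSO was -7.23 ± 1.71 (SE, limma, adjusted p = 0.495). Against cell2_LY it was -4.83 ± 1.71 (SE, limma, adjusted p = 0.218), and it was not called without cell2_LY replicate 1 (-2.07) or cell16_LY replicate 1 (-3.33), nor with FPKM or voom. LOC101903765, a transcribed pseudogene of the same family, had 132 and 459 normalized counts in LY_DMSO, 300.3 and 0 in cell2_LY and 0 reads in both cell16_LY embryos. With 3 reads per library as the limit, its level in cell16_LY was at least 84.6-fold lower than the vehicle mean (limma, adjusted p = 0.525), and at least 37.9-fold lower without LY_DMSO replicate 2. With voom neither gene was called in cell16_LY, against LY_DMSO (adjusted p = 0.779 for LOC100336795 and 0.744 for LOC101903765 by limma).

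These NKG2D ligand genes were uneven among vehicle embryos too. In the first table ULBP21 had 224, 987 and 65.6 normalized counts in DMSO and 80.4, 117 and 105 in LY10, and LOC101903765 had 331, 0 and 125 in DMSO and 158, 90.5 and 0 in LY10. Among DMSO and LY10 blastocysts 1 embryo of each treatment thus had 0 reads of LOC101903765. Near-identical copies in this family may share reads, so which copy is meant is uncertain. The genes called lower in LY10 were BoLA, LOC100336795, and a pair described as retinoic acid early transcript genes (LOC100848331 and LOC112445511), named after their values were seen.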

How the data were processed

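RNA of single day 8 blastocysts (SMART-seq, 12 libraries) and of bESC cultures (RNeasy kit, 4 libraries) was sequenced. Per the submitters' processing notes the tools were HISAT2 2.0.5, StringTie 1.3.3b, featureCounts 1.5.0-p3 and DESeq2 1.20.0, while the paper's methods also name STAR. Whether counting used strand or shared reads is not given in the sources used here. The authors deposited FPKM in 3 tables. Columns of the authors' own DESeq2 comparisons (fold changes and p-values) were not used.

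Whole reads were recovered as FPKM times gene length (100% of values, tolerance 0.02 reads) and put on 1 library size per table, its geometric mean. Genes with a mean of 10 or more entered limma 3.58.1 in R 4.3.3 (lmFit, eBayes with trend) as log2(normalized count + 1), the second blastocyst table with its 3 groups in 1 fit, and p-values were Benjamini-Hochberg adjusted over all tested genes. The fit was tested on simulated data. Alternatives were other pseudocounts (0.5, 5), other filters (none, 50), TMM, quantile normalization, FPKM of at least 0.5, voom, sample weights, a replicate block, a fit of the compared pair of groups, and leaving out each library. Reads on genes as library size, a crossed block and the second B2M copy were chosen after seeing the data.

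Members and lists were chosen with earlier results of these data known. A list gene was named when called, with a mean of 50 or more and no overlap between replicates, at most 3 per direction, list and comparison. Some genes were named outside this rule, among them ERAP1, RFX5, SOCS1, PSMB8, BOLA-DRB3, BOLA-DMB, CANX and PDIA3. Further software was Python 3.11.15, numpy 2.4.6, pandas 2.3.3 and matplotlib 3.10.9.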

Additional observations from a re-analysis of the deposited data

Results flagged for a closer look

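The change of B2M with LY from the 2-cell stage differed between the blastocyst experiments. The log2 fold change was -2.0 in the first table and 0.59 in the second, and their difference of -2.60 (standard error 0.53, limma over both tables, adjusted p = 0.0190) was past the threshold. B2M was lower in 3 of 3 LY10 embryos than in every DMSO embryo, and higher in 2 of 2 cell2_LY embryos than in both LY_DMSO embryos. The share of all genes whose groups lay apart in this way was not counted. The difference kept its call under all 21 alternatives, between -3.00 and -2.30 with an adjusted p between 0.0153 and 0.0829. No group had the 4 samples that a test for single outlying embryos needs. For the upper B2M copy, LOC783680, the same difference was -1.84 (adjusted p = 0.0706 by limma), called under all 21 alternatives, with log2 fold changes of -1.79 and 0.05.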

How the results depend on the processing

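Among members in LY10 against DMSO, 2 were called, and 1 with a mean of at least 50, quantile normalization, FPKM or voom (B2M in each), and 1 to 3 with a library left out. Calls over all genes there ranged from 1327 to 3449 over the 17 alternatives. In cell16_LY against LY_DMSO 0 were called, 1 with sample weights (CD74), 2 with only the 2 groups (CD74 and BOLA-DRA) and 0 to 2 with a library left out. Leaving out a library gave 1 to 2 calls in cell2_LY against LY_DMSO, 0 to 4 in cell16_LY against cell2_LY and 0 in bESCs. The difference between the blastocyst tables had 1 call among 7 tested members, and 3 of 7 with a pseudocount of 5 (3175 of 13724 genes). It had 2 of 6 with FPKM (2607 of 12518 genes). With reads on genes as library size it had 4 of 8 (3106 of 13758 genes), and 1 to 4 with a DMSO or LY10 library left out. In cell16_LY against LY_DMSO, 914 of 14529 genes were called with sample weights and 823 of 14318 with only the 2 groups. Calls over all genes thus moved with the setting, and these member counts show nothing particular to the members. CD74 in cell2_LY against LY_DMSO turned from 0.22 to -3.03 without cell2_LY replicate 1 and was 3.47 without cell2_LY replicate 2. Where a library left out left 1 in its group, that one was assumed to vary like the other groups.

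Replicate numbers are shared between groups, but nothing says that they mark a shared batch. With the replicate block 3 of 7 tested members were called in the difference between the tables, beside 3113 of 13724 genes. The block changed no other count of members. The deviations of same-numbered libraries correlated at -0.117, 0.168 and -0.0997 in the first blastocyst table. In the second they correlated at 0.121, -0.133 and -0.232, and in bESCs at 0.789. In bESCs the block raised the calls over all genes from 12 to 146. It gave B2M (the upper copy, 0.36) an adjusted p of 0.00126 and TAP1 (0.23) one of 0.0473 by limma. The lower B2M copy (0.11) had an adjusted p of at least 0.713 with the block, by limma. Numbers of cell16_LY crossed gave 0 member calls, as without a block. Reads on genes as library size shifted the all-gene median to 0.24 (log2) in cell2_LY against LY_DMSO. The cause of each change was not tested. BOLA, BoLA, NLRC5 and the class II members in blastocysts rest on few reads, which limits what their tests can show.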

Other observations

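Genes most like B2M over the 12 blastocysts, by Pearson's r of log2 normalized counts centred within each table, were TAGLN (0.881), an actin-binding protein gene, SMIM7 (0.878) and MAP4K3 (0.854), among 9296 genes with a mean of at least 50 in both tables. Genes most like BOLA were AHR (0.899), the aryl hydrocarbon receptor gene, DPY19L1 (0.897) and CYTB (0.845), the mitochondrial cytochrome b gene. The points are embryos of 2 tables that share groups and amplification, and BOLA rests on at most 29 reads per embryo, so the coefficients are descriptions without a p.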
